A study of Mus musculus with 12 samples.

Results

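Bladders of newborn mice carrying the SMGA/EGFP reporter transgene were compared with wild-type bladders whose arrays bear neighbouring database record numbers. The comparison holds 6 of the 12 arrays of the series: 3 SMGA/EGFP and 3 wild-type arrays from one run of record numbers, chosen by their labels and record numbers and by no measured value. In the SMGA/EGFP mice the promoter of smooth muscle gamma actin (Actg2), as the name is read here, drives enhanced green fluorescent protein. All animals were FVB/N mice at postnatal day 1, all were labelled male, and the controls were labelled wild-type. RNA came from whole bladders that were not pooled and was amplified in 1 round before hybridization to one-colour Affymetrix mouse arrays. The other 6 arrays, 3 SMAA/EYFP and 3 wild type of a second run of record numbers, enter only where the first-run difference is set against the second-run difference, or where the spread between arrays is taken from the whole series. The labels used here give no copy number, insertion site or litter for any animal. They describe mating FVB/N females with transgenic males, so sire, litter and genotype cannot be told apart, and p-values measure only the spread between these arrays.

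The newborn bladder wall is made of an inner urothelium that makes uroplakin plaques, a connective tissue layer with vessels and nerves, and an outer coat of smooth muscle, the detrusor. Part of the outer surface is covered by mesothelium, a flat epithelium that lines body cavities and makes hyaluronan and carries mesothelin and the mucin Muc16 on its surface. Actg2 encodes an actin of the contractile apparatus of visceral smooth muscle, and its promoter is used to label those cells.

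The genes furthest below wild type in SMGA/EGFP bladders included several that mark mesothelium: Gpm6a, a neuronal and mesothelial membrane glycoprotein, Lrrn4, a leucine-rich repeat membrane protein, Bnc1, a zinc finger protein of epithelia, and Muc16, a large cell-surface mucin. They differed from wild type by -2.27 to -1.65 on the log2 scale. Beside them, Fgfbp1, a secreted carrier that releases FGF ligands from the matrix, differed by -2.10 and Bst1, an ADP-ribosyl cyclase anchored at the cell surface, by -3.01. Upk3b, a uroplakin-family gene that mesothelium also expresses, did not follow, with a difference of 0.01. The 250 bases before a start listed in a RefSeq table of assembly GRCm38.p6 are given below, 5′ to 3′ on the gene's strand. They are those of the mesothelial genes furthest apart from wild type, of the mesothelial gene that did not differ and of Fgfbp1. Gpm6a has 2 listed starts, and the outer one was taken. The start listed for Lrrn4 lies 13148 bases inside the gene's outer end, so its window falls within the gene. Every match to 4 short motifs is in capitals. The motifs were TATAAA (the TATA box), CATTCC (the core recognised by TEAD factors), GGGCGG (the GC box) and GCGTGGG (a core shared by EGR factors and WT1), each on both strands. The windows lie at chr8:54779184-54779433 (plus strand), chr2:132880863-132881112 (minus strand), chr7:81992300-81992549 (minus strand), chr5:136038246-136038495 (plus strand) and chr5:43981800-43982049 (minus strand).
Gpm6a: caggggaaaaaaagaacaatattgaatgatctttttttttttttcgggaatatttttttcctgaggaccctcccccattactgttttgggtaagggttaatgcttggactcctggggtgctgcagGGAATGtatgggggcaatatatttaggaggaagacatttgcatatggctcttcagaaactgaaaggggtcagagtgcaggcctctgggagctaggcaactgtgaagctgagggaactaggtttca
Lrrn4: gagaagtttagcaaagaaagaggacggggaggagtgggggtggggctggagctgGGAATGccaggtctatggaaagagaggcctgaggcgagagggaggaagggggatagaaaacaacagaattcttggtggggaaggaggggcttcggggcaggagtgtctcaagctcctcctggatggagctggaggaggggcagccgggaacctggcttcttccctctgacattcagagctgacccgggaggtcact
Bnc1: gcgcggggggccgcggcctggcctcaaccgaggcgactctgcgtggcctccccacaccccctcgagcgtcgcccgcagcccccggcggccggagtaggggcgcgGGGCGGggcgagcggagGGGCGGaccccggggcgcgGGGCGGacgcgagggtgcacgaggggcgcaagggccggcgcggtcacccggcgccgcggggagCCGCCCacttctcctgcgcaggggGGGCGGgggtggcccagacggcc
Upk3b: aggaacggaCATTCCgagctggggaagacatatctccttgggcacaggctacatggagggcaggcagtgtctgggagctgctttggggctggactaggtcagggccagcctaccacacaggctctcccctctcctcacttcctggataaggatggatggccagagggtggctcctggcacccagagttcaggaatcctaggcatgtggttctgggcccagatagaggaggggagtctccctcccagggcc
Fgfbp1: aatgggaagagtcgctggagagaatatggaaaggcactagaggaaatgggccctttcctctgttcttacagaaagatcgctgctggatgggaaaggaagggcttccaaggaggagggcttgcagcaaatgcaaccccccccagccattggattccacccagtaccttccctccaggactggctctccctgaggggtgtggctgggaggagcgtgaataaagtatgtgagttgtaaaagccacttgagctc
Gpm6a, Lrrn4 and Upk3b held 1 match to CATTCC each, a motif present in 12.6% of the 27025 windows of this length in the table. Bnc1 held 5 matches to GGGCGG, present in 33.0% of windows, in a stretch of 83.6% G and C. TATAAA (13.0% of windows) and GCGTGGG (4.18%) matched none of the 5 windows, and Fgfbp1 held no match to any of the 4. Of the mesothelial genes whose windows are not printed, Cldn15 held 1 match to CATTCC and 1 to GGGCGG, and Muc16 and Rspo1 held no match to any of the 4. CATTCC was thus found both in genes that were lower and in Upk3b, and was missing from other genes that were lower. A match is a description of letters in a short window.

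The arrays were alike in scale. Median intensity ran from 229.39 to 305.94, and Pearson correlations between arrays were as high between the groups (0.960 to 0.973, 9 pairs) as within them (0.958 to 0.970, 6 pairs). Urothelial and smooth muscle markers were high in all 6: Upk3a lay between log2 14.90 and 15.22 and Myh11, the smooth muscle myosin heavy chain, between 15.62 and 15.82. Xist intensity lay between 128 and 250 in these 6 arrays, all labelled male, whereas wild-type array 4 of the second run, labelled male, read 29604. That array enters only the fits that use all 12 arrays.

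Over all genes the groups were close to balanced. Of 18193 genes, each represented by its brightest probe set, 8970 (49.3%) were higher and 9223 (50.7%) lower in SMGA/EGFP. The 3 arrays of each group did not overlap for 683 genes on the higher side (3.75%) and 673 on the lower side (3.7%). At an unadjusted p under 0.05 there were 243 genes higher (1.34%) and 266 lower (1.46%). Over the 45037 probe sets, limma with Benjamini-Hochberg adjustment called 0 (0.0%) in the comparison of 3 arrays with 3, while 722 higher (1.6%) and 658 lower (1.46%) had an unadjusted p under 0.05. The smallest adjusted p was 0.0704, for a probe set of Atp6ap2. With normalization over all 12 arrays and the spread between arrays estimated from them instead, the same contrast called 6 probe sets (0.0133%). All were lower in SMGA/EGFP: those of Atp6ap2, Fgfbp1, Bst1, Gpm6a, Bnc1 and Pnisr. The text below gives the values of the 3-against-3 fit, as log2(intensity + 16) after quantile normalization with limma's standard error (SE), and names the 12-array fit where it differs. Named in this way were the 15 genes with the smallest unadjusted p on each side, among genes whose arrays did not overlap and whose higher group reached log2 8. For these the probe set of smallest p was taken, whatever its brightness, and for 7 of the 30 (Rbm47, Sdc4, Atp1b1, Arid5b, Abcc5, Atp6ap2 and Pnisr) the gene has a brighter probe set.

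Atp6ap2, an accessory subunit of the vacuolar proton pump that also binds prorenin, is X-linked and had the smallest p. Its lead probe set, of the type with the suffix x_at, read 13.03, 13.31 and 13.31 in the SMGA/EGFP arrays and 14.63, 14.72 and 14.41 in the wild-type arrays. The groups lay far apart and each was narrow. The difference was -1.37 ± 0.12 (SE, 3 arrays a group), or 2.59-fold lower, and with the spread of 12 arrays the limma adjusted p was 0.000145. That suffix marks probes that can also match other transcripts. The other 2 probe sets of the gene read -0.06 ± 0.09, also with the suffix x_at, and -0.02 ± 0.09, without it. Of the 15 vacuolar ATPase genes with a named probe set, 7 were higher and 8 lower, with a median of 0.00. Of these 15, 0 did not overlap, beside 3.75% higher and 3.7% lower over all genes. Atp6ap2 is itself among the 15, through its brightest probe set, the one at -0.06. The large difference was thus read by 1 of the 3 probe sets of the gene.

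Fgfbp1 on chromosome 5 read 8.59, 9.06 and 9.60 in SMGA/EGFP and 11.29, 11.04 and 11.20 in wild type. Every SMGA/EGFP array lay below every wild-type array, with the wider spread among the SMGA/EGFP arrays. The difference was -2.10 ± 0.25 (SE), a 4.27-fold lower level, with a limma adjusted p of 0.418 in the 3-against-3 fit and 0.00238 with the spread of 12 arrays. Bst1 read 4.97, 4.82 and 6.32 against 8.31, 8.24 and 8.60, and the groups again lay apart. Its difference was -3.01 ± 0.46 (SE), its second probe set gave -2.61, and its limma adjusted p with the spread of 12 arrays was 0.0340. The deposited intensities of Bst1 in SMGA/EGFP were 18.24, 12.81 and 58.61, near the pseudocount of 16, so the size of this difference depends on it: -3.73 with a pseudocount of 1 and -2.06 with 64.

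Bst1 and Fgfbp1 are near neighbours in the gene order of the RefSeq table, with 1 protein-coding gene, Cd38, between them. No probe set used here carries the name Cd38 alone. The flanking genes did not share the difference: Fbxl5, Cc2d2a and C1qtnf7 on the Bst1 side read -0.16, 0.21 and 0.27, and Prom1, Tapt1 and Ldb2 on the Fgfbp1 side 0.19, -0.02 and 0.02. All 6 of these overlapped between the groups.

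**Figure D1:**
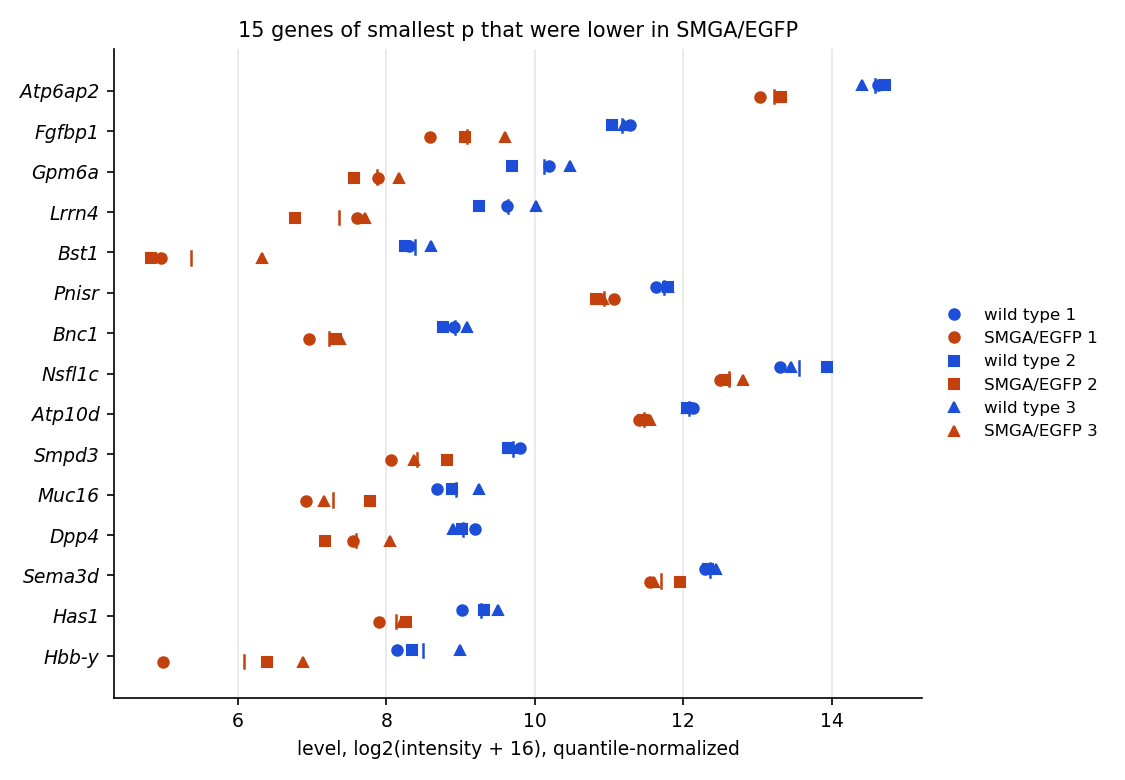
Levels of the 15 genes of smallest unadjusted p that were lower in SMGA/EGFP, 1 symbol per array and a short bar at each group mean, on the log2(intensity + 16) scale. Atp6ap2 sits near 13 to 15 and Bst1 near 5 to 9, and for each of the 15 genes the SMGA/EGFP arrays lie to the left of all wild-type arrays, which the naming rule required.

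The mesothelium list, 10 genes all present on the array, stood furthest from 0 of the 37 lists by mean difference. It was drawn up with earlier results of these arrays known, so its count is no independent evidence of its direction. Of the 10 genes, 9 were lower, 8 had arrays that did not overlap and 7 had an unadjusted p under 0.05, against shares of 50.7%, 3.7% and 1.46% over all genes. In the 3-against-3 fit 0 of them passed the adjusted threshold, and with the spread of 12 arrays 2 passed, Gpm6a and Bnc1. The median difference was -1.13, beside 0.00 over all genes. The list score, averaged over the 10 genes as each array's log2 distance from the gene's 6-array mean, ran from -0.70 to -0.42 in SMGA/EGFP and from 0.45 to 0.81 in wild type. In whole bladders, fewer cells of a type and less RNA per cell cannot be told apart.

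Gpm6a read 7.89, 7.56 and 8.17 in SMGA/EGFP and 10.19, 9.69 and 10.47 in wild type, more than 1 log2 unit apart between the nearest arrays. The difference was -2.25 ± 0.28 (SE), its second probe set gave -2.24, and the limma adjusted p was 0.418 in the 3-against-3 fit and 0.0423 with the spread of 12 arrays. Lrrn4 read 7.61, 6.77 and 7.71 against 9.63, 9.25 and 10.02, a difference of -2.27 ± 0.34 (SE) that missed the threshold with the spread of 12 arrays (limma adjusted p = 0.0657). Bnc1 read 6.96, 7.33 and 7.38 against 8.91, 8.75 and 9.08. Its groups were tight and apart, with a difference of -1.70 ± 0.27 (SE) and a limma adjusted p of 0.0472 with the spread of 12 arrays. Muc16 read 6.92, 7.77 and 7.16 against 8.68, 8.88 and 9.25, a difference of -1.65 ± 0.32 (SE). Its limma adjusted p was 0.122 with the spread of 12 arrays, so it did not pass in either fit.

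The other members of the list separated the groups less. Msln, the mesothelin precursor, read 8.40, 9.27 and 9.38 against 9.45, 10.44 and 10.23, with a difference of -1.03 ± 0.34 (SE). Its highest SMGA/EGFP array nearly reached its lowest wild-type array. Rspo1, a secreted activator of Wnt signalling, differed by -1.23 and Cldn15, a tight junction protein, by -0.72, both without overlap. Nkain4, a small membrane protein, differed by -0.40 with arrays that just missed each other, and by -0.20 without wild-type array 3. Wt1, a transcription factor of mesothelium and kidney, read 9.38, 8.40 and 9.19 against 9.80, 9.47 and 8.68. Its arrays overlapped, and the difference was -0.33 ± 0.36 (SE), and -0.03 without SMGA/EGFP array 2. Upk3b read 13.78, 13.94 and 13.88 against 13.77, 13.88 and 13.93, which interleave, and its probe set is by far the brightest of the list. Its difference is so close to 0 that its sign turned without quantile normalization (-0.01) and with each array centred on its median (-0.05).

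Several genes outside that list were lower with it. Has1, which makes hyaluronan, differed by -1.15 and Dpp4, a cell-surface peptidase, by -1.45. The 3 other probe sets of Dpp4 read between -0.13 and 0.26. Smpd3, a neutral sphingomyelinase, differed by -1.29, with 8.06, 8.82 and 8.36 in SMGA/EGFP against 9.80, 9.63 and 9.70, and its 2 other probe sets read -0.86 and 0.07. Sema3d, a secreted guidance cue, differed by -0.65 and by -0.03 in its second probe set. Nsfl1c, a cofactor of the p97 ATPase, differed by -0.94, and Atp10d, a lipid flippase subunit, by -0.60. Pnisr, a splicing-associated protein, differed by -0.80 ± 0.13 (SE), with a limma adjusted p of 0.0472 with the spread of 12 arrays. The 6 other probe sets of Pnisr ranged from -0.31 to 0.04. Hbb-y, an embryonic beta-like globin, read 4.98, 6.39 and 6.88 in SMGA/EGFP and 8.15, 8.35 and 8.99 in wild type, a difference of -2.41 ± 0.52 (SE). Its 2 other probe sets read -2.18 and -0.69. The lead probe set and the one at -2.18 have the suffix x_at, and the one at -0.69 does not. The low levels of the lead probe set scattered widely within the SMGA/EGFP group.

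**Figure D2:**
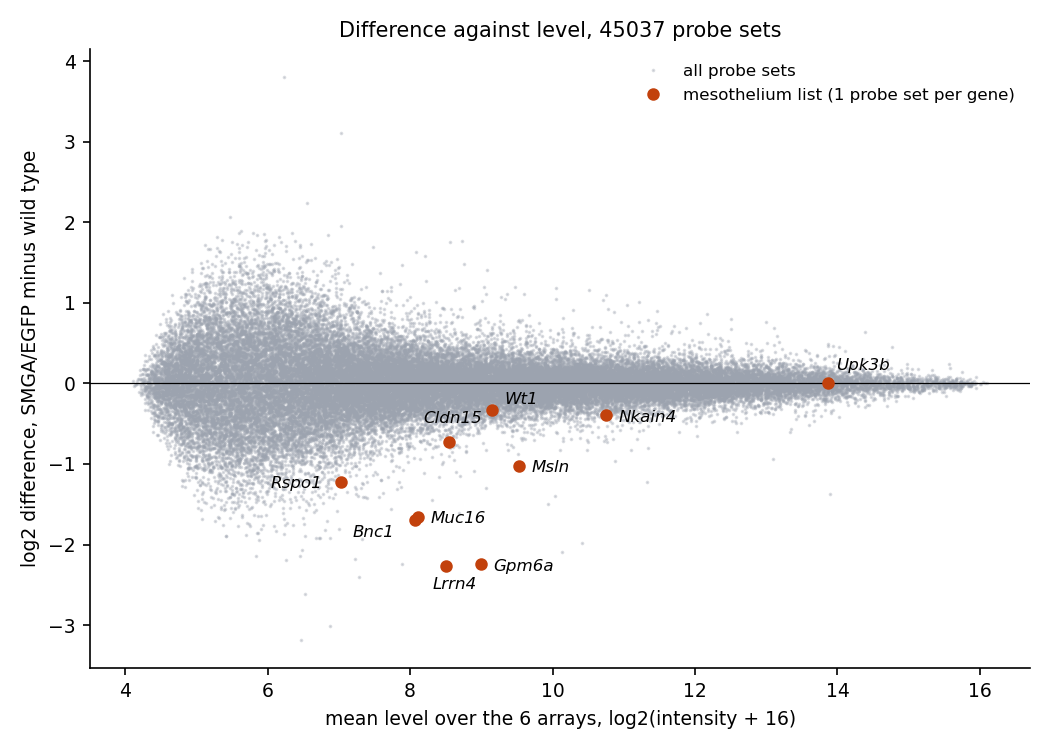
Log2 difference between SMGA/EGFP and wild type (vertical axis) against the mean log2 level over the 6 arrays (horizontal axis) for all 45037 probe sets in grey, with the 10 mesothelium genes in colour, 1 probe set each. Lrrn4 (-2.27) and Gpm6a (-2.25) lie at the lower edge of the cloud at their level, and Upk3b (0.01) lies on the zero line at the bright end.

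On the other side, the genes higher in SMGA/EGFP came from no single list, and none passed the adjusted threshold in the 3-against-3 fit or with the spread of 12 arrays. Rbm47, an RNA-binding protein of epithelia, read 9.78, 9.73 and 9.85 against 8.22, 8.53 and 8.39. The 3 SMGA/EGFP arrays nearly coincided. The difference was 1.41 ± 0.20 (SE), with a limma adjusted p of 0.796 in the 3-against-3 fit and 0.0599 with the spread of 12 arrays, and the gene's other probe sets read 0.06 and 0.32. Tcl1b3, of the Tcl1 family expressed in oocytes and early embryos, read 11.52, 11.17 and 11.21 against 9.88, 10.38 and 10.32. Its difference was 1.10 ± 0.18 (SE), with the same adjusted p of 0.0599 under limma with 12 arrays. Its only probe set has the suffix x_at, so it can also match other transcripts. Ager, the receptor for advanced glycation end products, read 9.64, 9.69 and 8.98 against 7.53, 8.15 and 7.36, the largest difference of these 15 at 1.76 ± 0.32 (SE). Its second probe set read 0.32.

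The remaining 12 lay between 0.36 and 1.18. Lpin1, a phosphatidate phosphatase of lipid synthesis, differed by 1.11, as did Sowahb, an ankyrin repeat protein. Abcc5, a transporter of organic anions, differed by 1.18, but its 9 other probe sets ran from -0.72 to 1.31. Opa3, a mitochondrial protein, differed by 0.62 in a probe set with the suffix x_at. Its 4 other probe sets ran from -0.33 to -0.03. Sdc4, a heparan sulfate proteoglycan of adhesion sites, read 12.81, 12.66 and 12.70 against 12.15, 12.23 and 12.19, a difference of 0.53 ± 0.10 (SE) between tight groups. Gclc, the catalytic subunit of glutathione synthesis, differed by 0.42, Atp1b1, a sodium pump subunit, by 0.57, Btg2, an antiproliferative early response gene, by 0.58, and Arid5b, a DNA-binding regulator, by 0.75. The 4 other probe sets of Atp1b1 ran from 0.01 to 1.02, with the 3 brighter ones at 0.01, 0.15 and 0.19, and those of Arid5b from -0.13 to 0.36. The second probe sets of Lpin1, Sdc4, Gclc and Btg2 read 0.51, 0.29, 0.20 and 0.44. Rusc2, Zkscan14 and 1810058I24Rik differed by 1.05, 0.96 and 0.36, while their other probe sets read 0.69 for Rusc2, 0.22 and 0.27 for Zkscan14 and 0.01 for 1810058I24Rik.

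**Figure D3:**
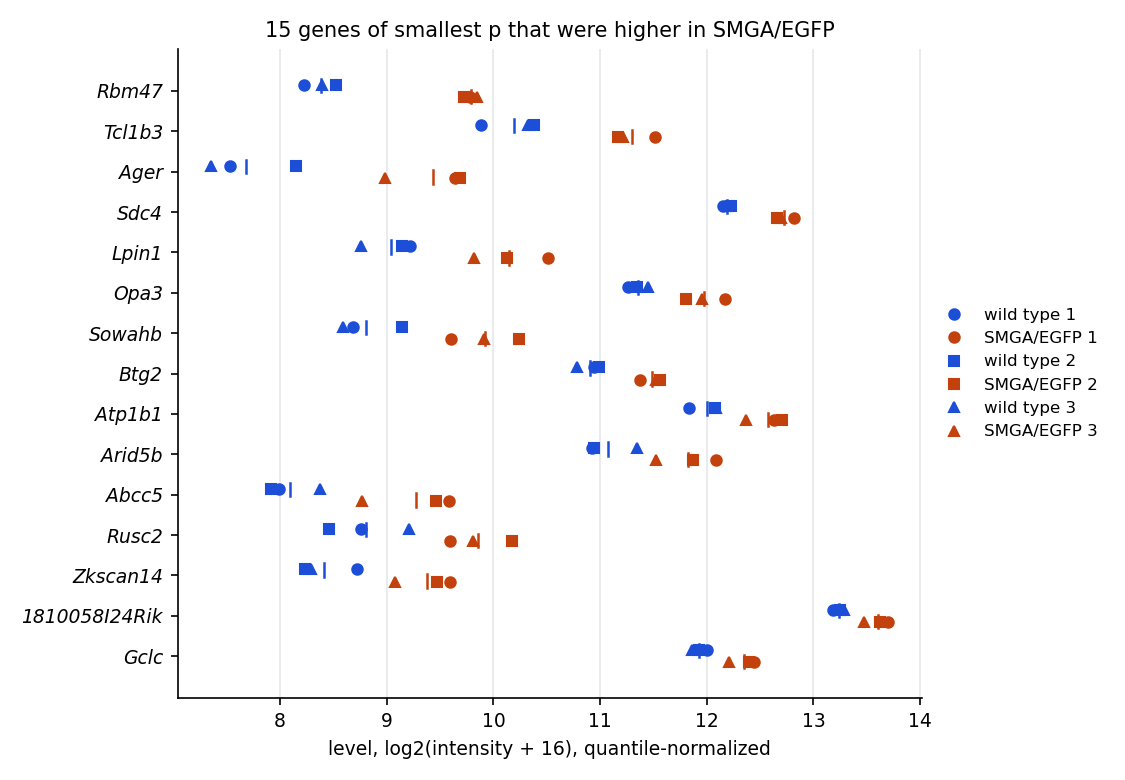
Levels of the 15 genes of smallest unadjusted p that were higher in SMGA/EGFP, 1 symbol per array and a short bar at each group mean, on the log2(intensity + 16) scale. The SMGA/EGFP arrays of Rbm47 lie close together at 9.73 to 9.85, and those of Ager spread from 8.98 to 9.69.

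The smooth muscle itself, where the Actg2 promoter is active, was close to wild type. Actg2, whose promoter is in the transgene, read 15.84, 15.85 and 15.80 in SMGA/EGFP and 15.82, 15.79 and 15.81 in wild type, a difference of 0.02 (two-sided exact permutation p = 0.3). Acta2, smooth muscle alpha actin, differed by -0.01 (exact permutation p = 0.9). With 3 arrays against 3 this test cannot go below 0.10, and both actins lie at the bright end of the scale. Dimmer probe sets of Acta2 read 0.23 ± 0.45 and 0.07 ± 0.42 (SE), far less precisely. Of 27 contractile genes 19 were higher and 8 lower, with a median of 0.03. Cald1, caldesmon, was the one whose arrays did not overlap, a share of the 27 no larger than the 3.75% over all genes, at 15.73, 15.73 and 15.63 against 15.45, 15.36 and 15.55. Its difference was 0.24 ± 0.08 (SE), and its 4 other probe sets ran from -0.37 to 0.31. In the list of smooth muscle receptors and ion channels, 11 of 14 genes were lower. Of the 14, 0 did not overlap, beside 3.75% higher and 3.7% lower over all genes. The median was -0.07, 0.00 without SMGA/EGFP array 2 and -0.22 without wild-type array 2. P2rx1, the ATP receptor of the detrusor, read -0.30 ± 0.25 (SE), and -0.06 without SMGA/EGFP array 2.

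Among the other cell types of the wall, the urothelium list leaned higher and the endothelium list lower. Of 27 urothelial genes 21 were higher and 6 lower, with a median of 0.11. The arrays did not overlap for 0 of them, beside 3.75% higher and 3.7% lower over all genes. Without SMGA/EGFP array 3 that median was 0.03, and without wild-type array 2 it was 0.27. Upk2 differed by 0.29 and Upk1a by 0.32, but Upk1b and Upk3a by 0.06 each. Of 21 endothelial genes 19 were lower, with a median of -0.15, 3 without overlap and 1 with an unadjusted p under 0.05, beside 3.7% and 1.46% over all genes. Icam2, an endothelial adhesion molecule, read 10.14, 8.90 and 10.03 against 10.53, 10.54 and 10.49, a difference of -0.83 ± 0.31 (SE) that was -0.44 without SMGA/EGFP array 2. Tek, the angiopoietin receptor, differed by -0.29. Without SMGA/EGFP array 2 the endothelial median was 0.02, so its direction rests on that array. Of 19 leukocyte genes 14 were lower, with a median of -0.10 that became 0.04 without SMGA/EGFP array 3. Ptprc, the pan-leukocyte phosphatase CD45, differed by -0.33 and Aif1, a macrophage marker, by -0.56. Macrophage genes did not share 1 direction. Cx3cr1, Cd68, Adgre1 and Mrc1 read -0.61, -0.10, -0.05 and -0.06, and C1qa, C1qb, C1qc and Cd163 read 0.06, 0.26, 0.08 and 0.10. The 9 mast cell genes had a median of -0.31 and the 7 erythroid genes -0.09.

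**Figure D4:**
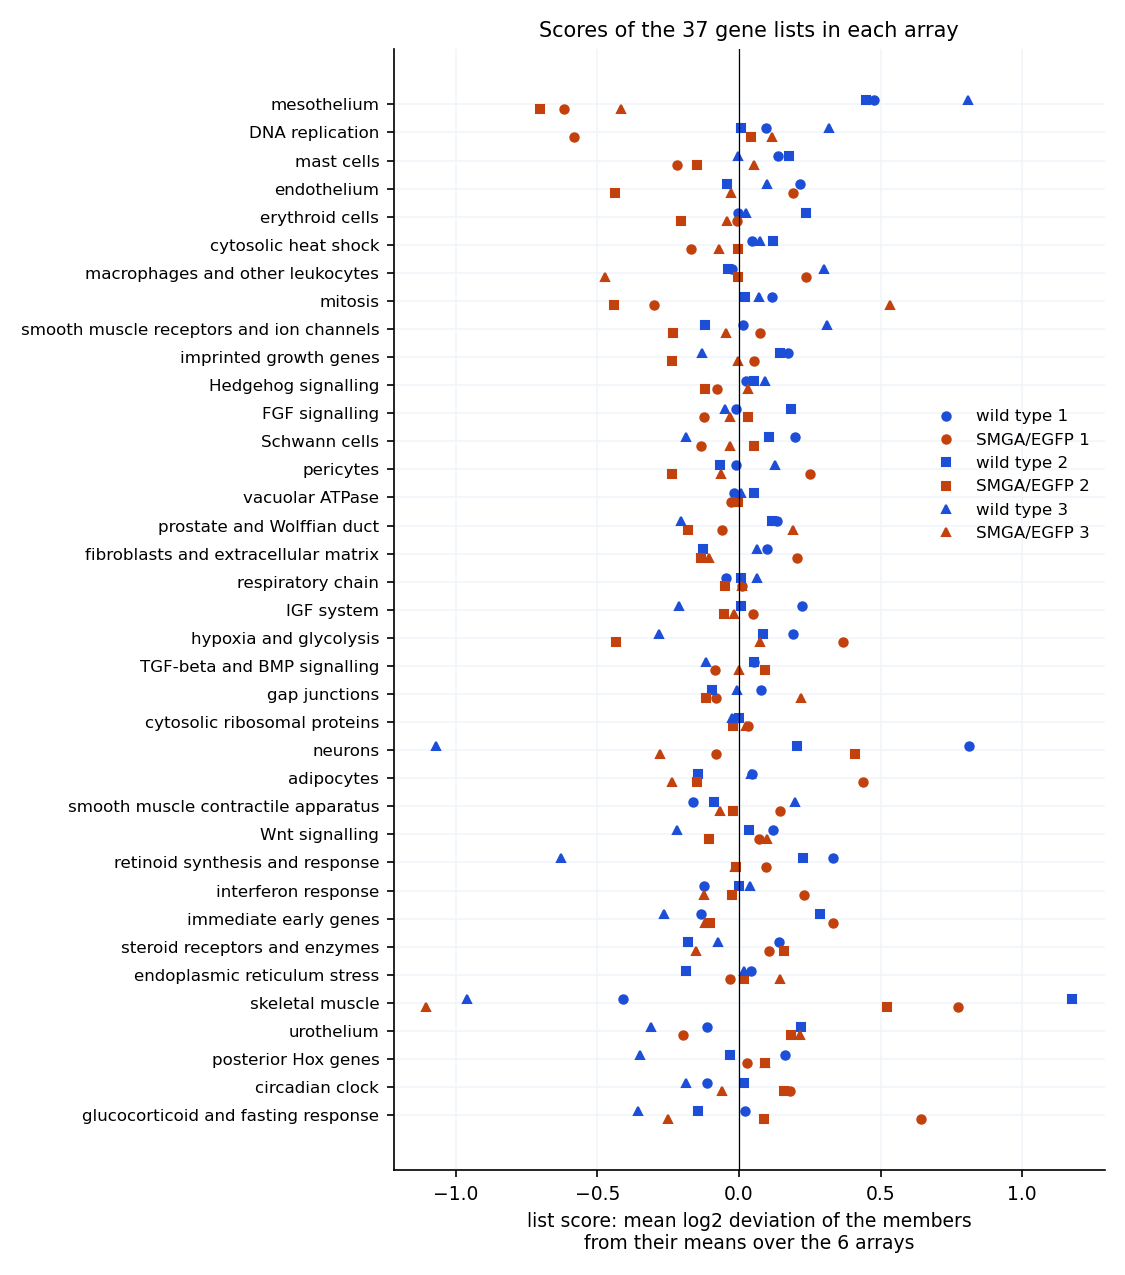
Score of each of the 37 gene lists in each of the 6 arrays (horizontal axis, the average log2 distance of a list's genes from their 6-array means), with lists ordered by mean difference. The mesothelium list separates the groups by the widest gap, with -0.42 as its highest SMGA/EGFP score and 0.45 as its lowest wild-type score, and most other lists mix the groups.

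Of the 37 lists, 3 (8.11%) had scores that did not overlap: mesothelium, cytosolic heat shock and erythroid cells. The heat shock list, chaperones that refold proteins, was lower by far less than mesothelium. Of its 13 genes 11 were lower, 0 did not overlap and 2 had an unadjusted p under 0.05, beside 3.7% and 1.46% over all genes. Dnajb1, a cochaperone of Hsp70, differed by -0.49 ± 0.18 (SE), and Chordc1, a partner of Hsp90, by -0.35 ± 0.15 (SE), or by -0.22 without SMGA/EGFP array 1. The list median was -0.19, and -0.06 without SMGA/EGFP array 1. The erythroid scores ran from -0.20 to -0.01 in SMGA/EGFP and up to 0.24 in wild type, with the nearest arrays next to each other.

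The DNA replication and mitosis lists followed single arrays. Of 19 DNA replication genes 18 were lower, with a median of -0.32, but SMGA/EGFP array 1 scored -0.58 while the other two lay among wild type, and without it the median was -0.04. Rrm2, a ribonucleotide reductase subunit, read 12.57, 13.40 and 13.63 against 13.60, 13.56 and 13.74, a difference of -0.44 that was -0.12 without SMGA/EGFP array 1. E2f1, a transcription factor of the G1 to S transition, differed by -0.58 without overlap. Of 22 mitosis genes 19 were lower, yet SMGA/EGFP array 3 had the highest score of all arrays, 0.53. Without SMGA/EGFP array 2 the mitosis median turned from -0.15 to 0.05.

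Of 19 glucocorticoid and fasting response genes 15 were higher, with a median of 0.34 that was 0.12 without SMGA/EGFP array 1, whose score of 0.64 was the highest. Klf15, a glucocorticoid-induced regulator of amino acid use, read 10.48, 9.36 and 8.97 against 8.85, 7.52 and 7.16, a difference of 1.76 ± 0.51 (SE). Angptl4, an inhibitor of lipoprotein lipase, went the other way at -1.23 ± 0.35 (SE). Of 18 clock genes 13 were higher, with a median of 0.15 that stayed between 0.10 and 0.26 when single arrays were left out. Per1, a repressor of the clock, read 11.43, 10.61 and 10.16 against 10.04, 9.39 and 10.06. Its difference of 0.91 ± 0.33 (SE) was 0.57 without SMGA/EGFP array 1. Among endoplasmic reticulum stress genes, Chac1, which degrades glutathione, differed by 0.73 ± 0.20 (SE) and Ddit3, the transcription factor CHOP, by 0.48 ± 0.22 (SE), both without overlap. Of the 19 genes of that list 11 were higher and 8 lower. These 2 were the only ones without overlap, beside 3.75% higher over all genes. The median over that list was 0.05, and -0.05 without wild-type array 2.

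Signalling lists differed in direction. In the FGF list 12 of 20 genes were higher, with a median of 0.09 that turned to -0.01 without wild-type array 1. Beside Fgfbp1, the ligand Fgf18 differed by -1.08 ± 0.44 (SE) with overlap, and by -0.71 without SMGA/EGFP array 3. Fgf7, a mesenchymal ligand for epithelial receptors, differed by 0.51 (0.21 without SMGA/EGFP array 1) and Spry1, a feedback inhibitor, by 0.19, both without overlap. In the Hedgehog list 11 of 14 genes were lower, with a median of -0.12 that stayed between -0.17 and -0.07 when single arrays were left out, and Foxf1, a mesenchymal target, differed by -0.25. Klf2, a flow-responsive transcription factor in the immediate early list, read 11.03, 10.97 and 10.52 against 11.39, 11.72 and 11.47. It differed by -0.69 ± 0.17 (SE) without overlap. Of 15 imprinted growth genes 14 were lower, with a median of -0.05 and scores that overlapped. That median was 0.00 without SMGA/EGFP array 2 and -0.24 without wild-type array 3, and Igf2, the fetal growth factor, differed by -0.21, or by -0.12 without SMGA/EGFP array 2. The respiratory chain (median -0.02) and ribosomal protein lists (0.00) lay at the level of all genes. None of the genes of these lists other than Fgfbp1 passed the limma adjusted threshold, in either fit.

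Whether the first-run difference was also seen with the second reporter was tested directly, since SMAA/EYFP against the wild type of the second run shares no arrays with it. The test of the difference between the 2 differences called 2 of 45037 probe sets (0.00444%), with 12 arrays in 1 limma fit. For Fgfbp1 the second-run arrays read 12.17, 12.36 and 11.92 in SMAA/EYFP and 11.83, 11.79 and 11.63 in wild type, so the order of the groups was turned. Its difference of differences was -2.53 ± 0.29 (SE, limma adjusted p = 0.0189). For Atp6ap2 the second-run arrays read 14.50, 14.46 and 14.53 against 14.60, 14.43 and 14.54 and interleaved. Its difference of differences was -1.34 ± 0.14 (SE, limma adjusted p = 0.0127).

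Leaving out single arrays ended these calls in many fits. Atp6ap2 passed in 6 of 12 such fits and failed without wild-type 1, 2, 5 or 6 or SMAA/EYFP 1 or 2. Fgfbp1 passed in 3 of 12, those without SMGA/EGFP 1, SMGA/EGFP 3 or SMAA/EYFP 3. The size kept to -1.42 to -1.24 for Atp6ap2 and -2.79 to -2.30 for Fgfbp1.

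The mesothelial genes read 0.25 (Gpm6a), 0.08 (Lrrn4), 0.27 (Bnc1) and 0.24 (Muc16) in the second run, where SMAA/EYFP thus averaged slightly above wild type. Their differences of differences were -2.52 ± 0.43 (SE) for Gpm6a, -2.35 ± 0.48 for Lrrn4, -1.94 ± 0.33 for Bnc1 and -1.86 ± 0.38 for Muc16, with limma adjusted p between 0.348 and 0.742. These did not pass, so a difference between the runs is not shown for them. Bst1 read 0.37 in the second run, with a difference of differences of -3.32 ± 0.53 (SE, limma adjusted p = 0.336). The wild-type means themselves moved between the first and second run, from 10.12 to 11.04 for Gpm6a. For Lrrn4 they moved from 9.63 to 10.57 and for Bst1 from 8.39 to 9.04. The first-run means were normalized over 6 arrays and the second-run means over 12. Of the genes higher in SMGA/EGFP, Rbm47 read 0.07 and Ager -0.45 in the second run. Gclc was the closest match of the 30, at 0.42 beside 0.44. The record runs and the transgenes coincide, so the reporter and the run cannot be told apart here.

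**Figure D5:**
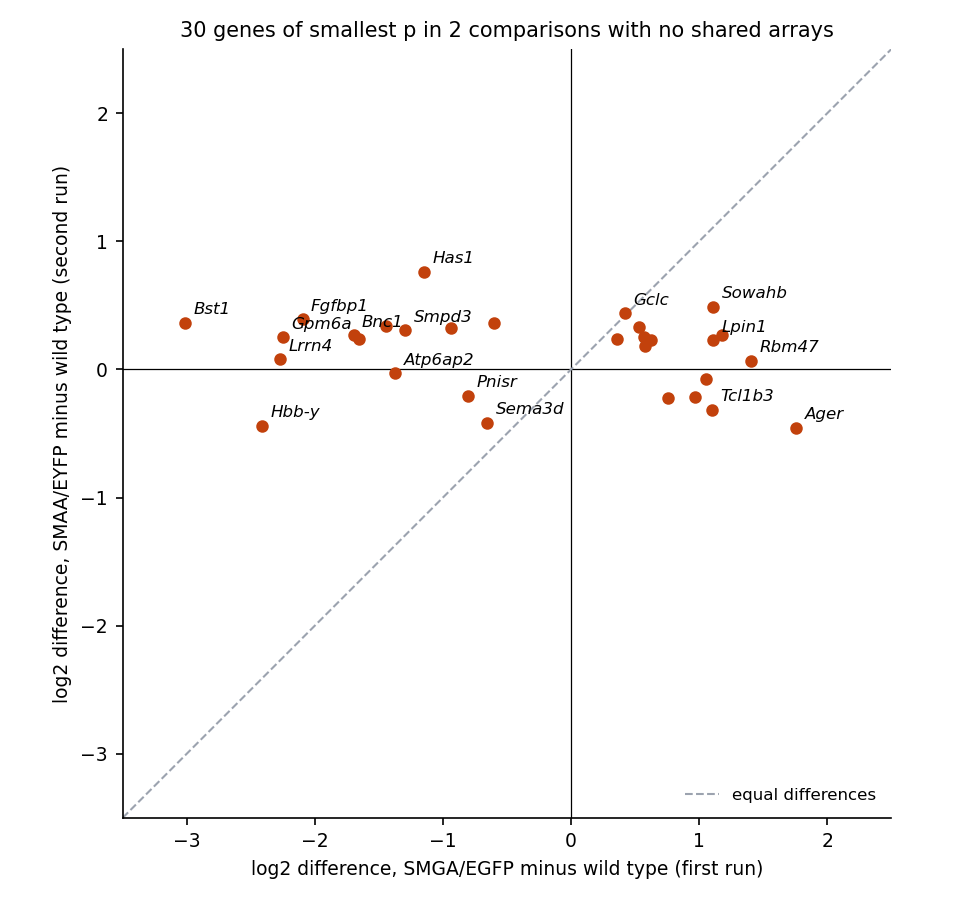
Log2 difference of SMGA/EGFP from wild type in the first run (horizontal axis) against the log2 difference of SMAA/EYFP from wild type in the second run (vertical axis) for the 30 genes of smallest unadjusted p in the first run, with a dashed line where both are equal. Fgfbp1, Bst1, Gpm6a and Lrrn4 lie far to the left at second-run values between 0.08 and 0.39, Hbb-y (-2.41) lies as far left at -0.44, and the horizontal spread reflects the choice of the genes by their first-run p.

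With the spread of 12 arrays, Atp6ap2 and Fgfbp1 passed in all 12 fits that left out 1 array. The other 4 calls depended on single arrays: Gpm6a and Bst1 passed in 3 of 12, Bnc1 in 2 and Pnisr in 1, and without wild-type array 4, whose Xist level goes against its label, only Atp6ap2 and Fgfbp1 passed. In the 3-against-3 fit, leaving out any 1 of the 6 arrays gave 0 calls. The mesothelial median ranged from -1.30 to -0.90 over those 6 fits.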

How the data were processed

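Bladder RNA of 12 mice was hybridized to one-colour arrays, and 6 arrays form the comparison described. The authors deposited linear intensity per probe set, made with GCOS per the submitters' processing notes. Its version, algorithm and detection calls are not given in the sources used here. The trimmed mean was 1500 on each array, so each had been scaled. No probe set's background or saturation was known, and the number of arrays, 3 a group, limits the precision.

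Of 45101 probe sets, 64 controls were left out. Intensities were converted to log2(intensity + 16) and quantile-normalized, and 45037 probe sets were tested two-sided with limma 3.58.1 in R 4.3.3 (lmFit, eBayes with a trend) and Benjamini-Hochberg adjustment at a threshold of 0.05. The script was tested on simulated data. The difference of differences used 12 arrays with 4 group-by-run means, as did the fit with the spread of 12 arrays. Both were quantile-normalized over the 12 arrays, so the first-run difference shifts slightly there, for Fgfbp1 to -2.14. No covariate was used in the 3-against-3 fit.

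Symbols came from GEO's platform annotation: 34945 probe sets had 1 symbol, 932 several and 9160 were not listed, and none was named from several. In 37 lists, 616 of 670 genes had a named probe set, and the brightest stood for the gene in counts over genes and lists. Named were the 15 genes of smallest p over any probe set on each side (arrays not overlapping, higher mean at least log2 8), up to 4 of smallest p per list, the genes called in either fit or in an earlier analysis, Acta2 and Actg2. The members, lists, tests and alternatives were chosen with earlier results of these data known. Sequences came from RefSeq (GRCm38.p6), which held 9 of the 14 genes looked up. Motif counts are of exact letters.

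Alternatives were values as deposited, centring on the median, pseudocounts of 1 and 64, filters at the 25th percentile, the median and the 75th percentile, eBayes without a trend or robust, array weights, 1 probe set per gene, the spread of 12 arrays and leaving out each array. Those applied to the 12-array fit were chosen after seeing the data.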

Additional observations from a re-analysis of the deposited data

Results flagged for a closer look

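The difference from wild type was not the same with both reporters for 2 probe sets, by a limma test of the difference between SMGA/EGFP minus wild type in the first run and SMAA/EYFP minus wild type in the second run. For Fgfbp1 the difference of differences was -2.53 (SE 0.29, Benjamini-Hochberg adjusted p = 0.0189), and for Atp6ap2 -1.34 (SE 0.14, adjusted p = 0.0127). In the first run all 3 SMGA/EGFP arrays lay below all 3 wild-type arrays for both. With single arrays left out, Fgfbp1 passed in 3 of 12 fits and Atp6ap2 in 6 of 12, and without wild-type array 4, whose Xist level goes against its label, Fgfbp1 did not pass. In the second run the 3 SMAA/EYFP arrays lay above the 3 wild-type arrays for Fgfbp1 and among them for Atp6ap2. For Atp6ap2 the value comes from 1 of 3 probe sets of the gene. The record run and the reporter cannot be told apart.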

How the results depend on the processing

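In the 3-against-3 limma fit, filters at the 25th percentile, the median and the 75th percentile, the robust option and array weights each called 1 probe set where the fit as reported called 0, and that probe set was of Atp6ap2 each time (adjusted p 0.0213 to 0.0333). With the spread of 12 arrays and 4 group-by-run means 6 were called. Leaving out single arrays gave 0 calls in each case. In the fit with the spread of 12 arrays, a filter at the median gave 10 calls (with Rbm47, Tcl1b3, Lrrn4 and Smpd3 beside the 6), and leaving out single arrays gave 2 to 8. The difference of differences called 0 without a trend, and 0 to 4 when single arrays were left out. The cause of these shifts was not tested. Acta2 turned to 0.0342 as deposited (exact permutation p = 0.8) and ran from -0.0349 to 0.0359 when single arrays were left out, turning without SMGA/EGFP 3 or wild-type 2. Upk3b turned to -0.0108 as deposited and -0.0524 with centring, and ran from -0.0345 to 0.0537 when single arrays were left out, turning without SMGA/EGFP 2 or wild-type 1. No other gene that was run under the alternatives turned its sign. The genes run did not include the neighbours of Bst1 and Fgfbp1. Nor did they include the macrophage genes Cx3cr1, Cd68, Adgre1, Mrc1, C1qa, C1qb, C1qc and Cd163. The mesothelium median was -0.19 with a filter at the 75th percentile, which leaves fewer of its genes. No paired analysis was possible because the labels give no replicate numbers, and those used follow accession order. Levels near the pseudocount, as for Bst1, limit what a fold can say.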

Other observations

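Lists for nerve and striated muscle spread widely within the groups. The neuron list scored 0.81 in wild-type array 1 and -1.07 in wild-type array 3, and its 22 genes had a median difference of 0.07 that ran from -0.58 to 0.50 when single arrays were left out. The skeletal muscle list, 20 genes, scored 1.18 in wild-type array 2 and -1.10 in SMGA/EGFP array 3, and its median of 0.21 ran from -0.30 to 0.64. The retinoid list scored -0.63 in wild-type array 3 alone. In a principal component analysis of the 6 arrays the first component held 33.7% of the variance and set SMGA/EGFP array 1 (40.1) against wild-type array 3 (-30.7) and SMGA/EGFP array 2 (-29.8), which does not separate the groups.

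Of the 30 genes of smallest unadjusted p, 7 lie on chromosome 5: Bst1, Fgfbp1, Rbm47, Sowahb, Atp10d, Sema3d and Zkscan14. That is 23.3% of them, beside 6.22% of the 18028 genes with a known chromosome. This was noticed after the values were seen and was not tested.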
